A study of Mus musculus with 20 samples.

Results

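The genes described here are 9 genes listed as identity genes of the delta and PP cells of the pancreatic islet, namely Hhex, Rbp4, Ghsr, Ptprz1, Arg1, Sertm1, Lepr, Mc4r and Etv5. They were taken by name, and all 9 were among the 26211 genes of the table. RNA was sequenced from islets of mice carrying the label P2Y14-knockout (10 libraries) and of mice labelled wildtype (10 libraries). All 20 libraries carried the strain label C57BL/6 x 129S6, and no age, sex, pooling of animals or form of the deleted allele is given in the sources used here. Islets were cut free with an enzyme mix, hand-picked and held in culture overnight before RNA was taken. P2Y14, the product of P2ry14, is a receptor for UDP and UDP-sugars that couples to G proteins.

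Delta cells make somatostatin, the peptide product of Sst, which acts on neighbouring beta and alpha cells to hold back insulin and glucagon. PP cells make pancreatic polypeptide, the product of Ppy. Both are minor cell types of the islet, so in RNA of whole islets their transcripts are read through those genes that other cells make little of. In such bulk RNA, fewer cells of a type and less RNA per cell cannot be told apart.

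P2ry14, the targeted gene, had lowest, median and highest normalized read counts of 0, 44.8 and 113.5 in knockout, and 79.7, 118 and 262 in wild-type libraries. The mean was 51.2 ± 31.4 in knockout and 151 ± 67.4 in wild-type libraries (SD, n = 10 each), with a log2 difference of −1.97 (adjusted p = 0.244 by limma). Knockout libraries 2 and 10 lay inside the wild-type range for P2ry14, at 113.5 and 86.0, so the fits were repeated without them. Reads over genes ranged from 34520628 to 199847246 in knockout and from 53766074 to 168991840 in wild-type libraries. Nothing in the labels ties a library to a single animal. The p-values therefore speak only of the spread among these libraries, which may be technical. Values are read counts per gene divided by 1 size factor per library, called normalized read counts.

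The hormone genes that define the labelled cell types were abundant in every library. Sst had a lowest, median and highest normalized read count of 34450, 79859 and 114372 in knockout, and of 84301, 94801 and 166733 in wild-type libraries. For Sst, 5 knockout libraries stood under the wild-type minimum. Its log2 difference, knockout minus wild-type, was −0.54 (SE 0.20, adjusted p = 0.406 by limma over all genes). Ppy, from PP cells, ran from 26676 to 425938 in knockout and from 53865 to 353245 in wild-type libraries. Pyy, which encodes the related peptide YY, ran from 21971 to 86579 in knockout and from 43235 to 104865 in wild-type libraries.

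The promoter windows of Sst and Rbp4 are shown because these genes varied together from library to library. Each window holds 250 bases before and 50 bases after a start site annotated by RefSeq on GRCm38.p6. The Sst window lies on the minus strand at chr16:23890795-23891094. The Rbp4 windows, for 2 annotated starts, lie on the minus strand at chr19:38125272-38125571 and chr19:38124762-38125061. Capitals mark matches to TGACGTCA, the palindromic cAMP response element, and to TATAAA, the TATA box.

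Sst: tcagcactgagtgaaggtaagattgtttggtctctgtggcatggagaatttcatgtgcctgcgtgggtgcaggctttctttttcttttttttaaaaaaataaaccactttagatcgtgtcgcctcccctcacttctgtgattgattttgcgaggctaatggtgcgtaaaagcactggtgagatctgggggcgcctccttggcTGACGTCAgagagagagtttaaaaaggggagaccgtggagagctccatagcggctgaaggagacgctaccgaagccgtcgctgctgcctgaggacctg

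Rbp4, upstream start: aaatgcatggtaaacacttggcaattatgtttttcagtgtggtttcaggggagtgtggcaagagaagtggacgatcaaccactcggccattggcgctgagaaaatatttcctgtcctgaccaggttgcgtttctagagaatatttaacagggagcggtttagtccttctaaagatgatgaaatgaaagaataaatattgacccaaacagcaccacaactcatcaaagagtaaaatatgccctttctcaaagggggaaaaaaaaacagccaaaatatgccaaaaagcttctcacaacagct

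Rbp4, downstream start: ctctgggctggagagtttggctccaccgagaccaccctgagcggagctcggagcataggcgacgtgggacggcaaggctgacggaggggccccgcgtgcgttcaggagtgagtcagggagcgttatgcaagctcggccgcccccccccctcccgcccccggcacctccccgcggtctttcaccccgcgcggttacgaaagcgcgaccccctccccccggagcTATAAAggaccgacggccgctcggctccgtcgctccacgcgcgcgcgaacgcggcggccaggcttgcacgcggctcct

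The match in the Sst window begins 48 bases before the start. The match in the downstream Rbp4 window is a TATAAA that begins 28 bases before the start. Both strands were searched for TGACGTCA, TATAAA, the homeodomain core TAATTA and the ETS motif CCGGAAGT, and no matches overlapped in the windows shown. Of 32851 promoter windows of the same length, 1.79% hold TGACGTCA, 13.6% TATAAA, 5.29% TAATTA and 3.89% CCGGAAGT. None of these motifs was found in the upstream Rbp4 window or in the windows of Hhex, Ghsr, Ptprz1, Sertm1, Lepr or Etv5. Windows of Arg1 and Mc4r were not used here.

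The levels of the 9 genes were compared per kb of exon, with the exon lengths of GENCODE M21. Rbp4 was the highest, at a mean over all 20 libraries of 6794 normalized read counts per kb, which is 19.2-fold below Sst at 130199. Etv5 followed at 319.7 per kb, then Arg1 at 115, Lepr at 92.2, Hhex at 82.7, Sertm1 at 24.7, Ptprz1 at 16.8, Ghsr at 8.43 and Mc4r at 1.98. The ranges over libraries did not overlap between Rbp4 and Etv5 or between Pyy and Rbp4. From Arg1 downwards each range overlapped with that of the gene above it. Within single libraries Arg1 was below Etv5, and Sertm1 below Hhex, in 20 of 20. Lepr was below Arg1 in 14 libraries and Hhex below Lepr in 12, so the order of those 3 genes changed between libraries.

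**Figure D1:**
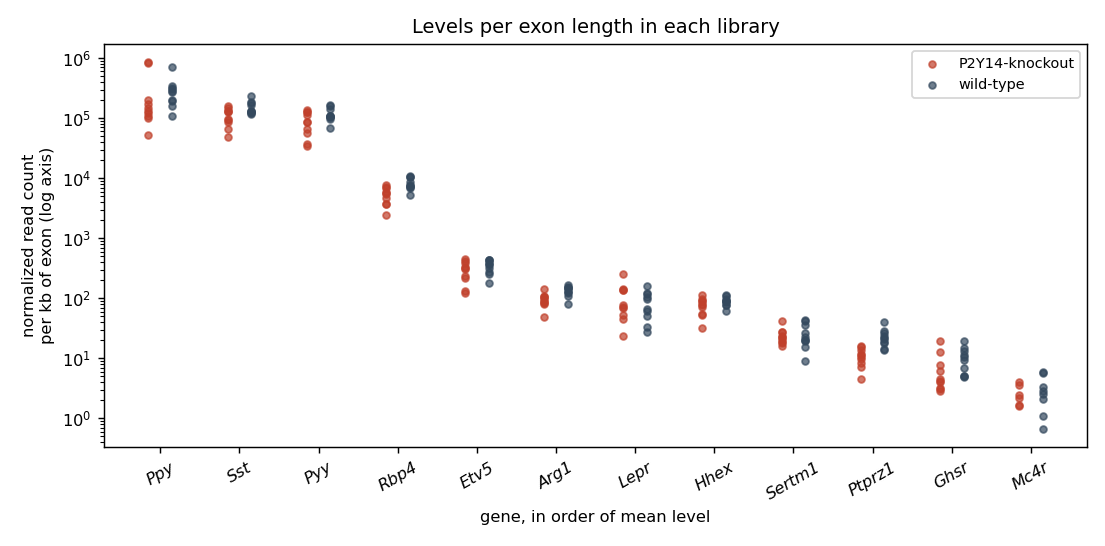
Normalized read count per kb of exon (vertical, log axis) of the 9 genes and of the hormone genes Ppy, Sst and Pyy in each library, with genes ordered by their mean. Points are single libraries, knockout left of wild-type, and the libraries in which Mc4r is at 0 (4 knockout, 2 wild-type) are not drawn. Rbp4 stands between the hormones and the other genes, and Mc4r is lowest.

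Knockout and wild-type islets were compared to ask whether these genes differed with the loss of P2Y14. Of the 9 genes, 8 had a mean normalized read count of at least 10 and were tested, and Mc4r was not. Ptprz1 fell in knockout libraries, and it was the only 1 of the 8 past an adjusted p of 0.05 by limma over all 17482 tested genes, of which 0.120% were called lower and 0.160% higher. Rbp4 and Arg1 had negative differences with an unadjusted p under 0.05 that did not pass the adjustment. Thus 3 of the 8 were lower at an unadjusted p under 0.05, against 4.63% of all tested genes, and 0 of the 8 were higher, against 4.31%. The log2 difference was negative for 7 of 8, with a median of −0.40, against 50.4% negative and a median of −0.002 over all tested genes. The genes were listed with earlier results of these data known, so these counts are a description. For none of the 8 were the groups apart without overlap, as for 0.0343% of all tested genes.

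Ptprz1 (ENSMUSG00000068748, chromosome 6) encodes a receptor-type tyrosine phosphatase of the cell surface that binds the growth factor pleiotrophin. In knockout libraries 1 to 10 its normalized read counts were 198.0, 120.3, 136.7, 163.5, 227.7, 223.6, 65.1, 103.4, 170.2 and 149.6. In wild-type libraries 11 to 20 they were 333.5, 379.8, 314.7, 207.5, 267.3, 256.9, 195.7, 294.5, 570.2 and 404.6. All 10 knockout libraries lay below the wild-type median of 305, and 7 stood under the wild-type minimum, while 8 wild-type libraries lay above the highest knockout library. The groups thus overlapped through 3 knockout and 2 wild-type libraries. The mean was 156 ± 52.1 in knockout and 322 ± 110 in wild-type libraries (SD, n = 10 each), a ratio of 0.483. The log2 difference was −1.06 (95% interval −1.52 to −0.60, adjusted p = 0.0366 by limma). With 1 library left out the difference ran from −1.13 to −0.93 and the call held in 6 of 20 fits, with adjusted p from 0.0201 to 0.0779. Without knockout libraries 2 and 10 it was −1.03 with an adjusted p of 0.0945 by limma. Glia also make Ptprz1, and the summed level of 8 Schwann and neural markers ran from 451 to 866 in knockout and from 403 to 882 in wild-type libraries. The fit with the mean log2 level of those markers as a covariate gave −1.05 (adjusted p = 0.0370 by limma). Their part in the level of Ptprz1 was not tested.

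Rbp4 (ENSMUSG00000024990, chromosome 19) encodes the retinol-binding protein that carries vitamin A in blood, and its transcript marks delta cells in mouse islets. Its lowest, median and highest normalized read counts were 3286, 7458 and 10266 in knockout, and 7087, 10234 and 14629 in wild-type libraries. All 10 knockout libraries lay below the wild-type mean, and 5 wild-type libraries lay above the highest knockout library. The mean was 7181 ± 2250 in knockout and 11066 ± 2476 in wild-type libraries (SD, n = 10 each), with a log2 difference of −0.67 (95% interval −1.05 to −0.28). The unadjusted p was 0.00145 and the adjusted p 0.167 by limma. Rbp4 is the most deeply read of the 9 genes, with at least 3386 reads in each library.

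Arg1 (ENSMUSG00000019987, chromosome 10) encodes arginase 1, which splits arginine into ornithine and urea. Its lowest, median and highest normalized read counts were 108, 209 and 323 in knockout, and 179, 313 and 374 in wild-type libraries. Of the 10 knockout libraries 9 lay below the wild-type median, and 5 wild-type libraries lay above the highest knockout library. The mean was 212 ± 55.1 in knockout and 299 ± 56.5 in wild-type libraries (SD, n = 10 each), with a log2 difference of −0.51 (95% interval −0.86 to −0.17, adjusted p = 0.309 by limma). Arg1 is also known as a gene of alternatively activated macrophages. The summed level of 8 macrophage markers ran from 954 to 3665 in knockout and from 688 to 3409 in wild-type libraries. Singly, 5 of them had positive and 3 negative log2 differences, with a median of 0.39, and 0 were called. With their mean log2 level as a covariate Arg1 was at −0.53. Their part in the level of Arg1 was not tested.

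Hhex and Etv5 encode transcription factors, and neither differed beyond the spread. Hhex (ENSMUSG00000024986, chromosome 19) encodes a homeobox protein that mouse delta cells need to stay differentiated. Its lowest, median and highest normalized read counts were 161, 392 and 583 in knockout, and 316, 454 and 565 in wild-type libraries. Knockout libraries 1, 2 and 3 lay below all wild-type libraries, whereas knockout library 5 lay above them. The log2 difference of Hhex was −0.29 (95% interval −0.68 to 0.10, adjusted p = 0.664 by limma), and −0.16 without knockout library 2. Etv5 (ENSMUSG00000013089, chromosome 16) encodes an ETS factor that acts downstream of FGF signalling. Its lowest, median and highest normalized read counts were 499, 1305 and 1880 in knockout, and 734, 1497 and 1788 in wild-type libraries. Its groups overlapped, with a log2 difference of −0.30 (95% interval −0.78 to 0.19, adjusted p = 0.730 by limma), and −0.17 or −0.18 without knockout library 7 or 10.

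Ghsr, Lepr and Mc4r encode receptors for hormones of energy balance. Ghsr (ENSMUSG00000051136, chromosome 3), the ghrelin receptor, had lowest, median and highest normalized read counts of 12.6, 19.3 and 85.5 in knockout, and 21.9, 44.1 and 85.6 in wild-type libraries. The wild-type minimum exceeded 6 of the 10 knockout libraries, and knockout library 7 stood at the top of the wild-type range. The log2 difference of Ghsr was −0.69 (95% interval −1.44 to 0.05, adjusted p = 0.586 by limma). Single libraries held 7 to 123 reads of Ghsr. With a pseudocount of 10 the difference was −0.52.

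Lepr (ENSMUSG00000057722, chromosome 4), the leptin receptor, had lowest, median and highest normalized read counts of 167, 521 and 1760 in knockout, and 196, 582 and 1121 in wild-type libraries. It was the only 1 of the 8 tested genes with a positive log2 difference, 0.16 (95% interval −0.63 to 0.96, adjusted p = 0.925 by limma). That sign rested on knockout library 10, without which the difference was −0.02. Mc4r (ENSMUSG00000047259, chromosome 18), a melanocortin receptor known for its part in the control of appetite, was near the limit of detection. Knockout libraries held 43 reads of Mc4r in all and wild-type libraries 86, and 4 knockout and 2 wild-type libraries held none.

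Sertm1 (ENSMUSG00000056306, chromosome 3), a gene of a small serine-rich membrane protein, had lowest, median and highest normalized read counts of 51.4, 71.6 and 135 in knockout, and 29.5, 68.7 and 139.8 in wild-type libraries. All 10 knockout libraries lay inside the wild-type range. The log2 difference was −0.01 (95% interval −0.54 to 0.52, adjusted p = 0.993 by limma), and it ran from −0.16 to 0.09 with 1 library left out. Ghsr and Sertm1 lie on chromosome 3, as P2ry14 does.

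Without knockout libraries 2 and 10 the log2 difference of Rbp4 was −0.55, of Ghsr −0.53, of Arg1 −0.42, of Etv5 −0.25, of Hhex −0.20, of Lepr −0.03 and of Sertm1 −0.01. Apart from Lepr, which changed sign, each kept the direction it had with all libraries.

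**Figure D2:**
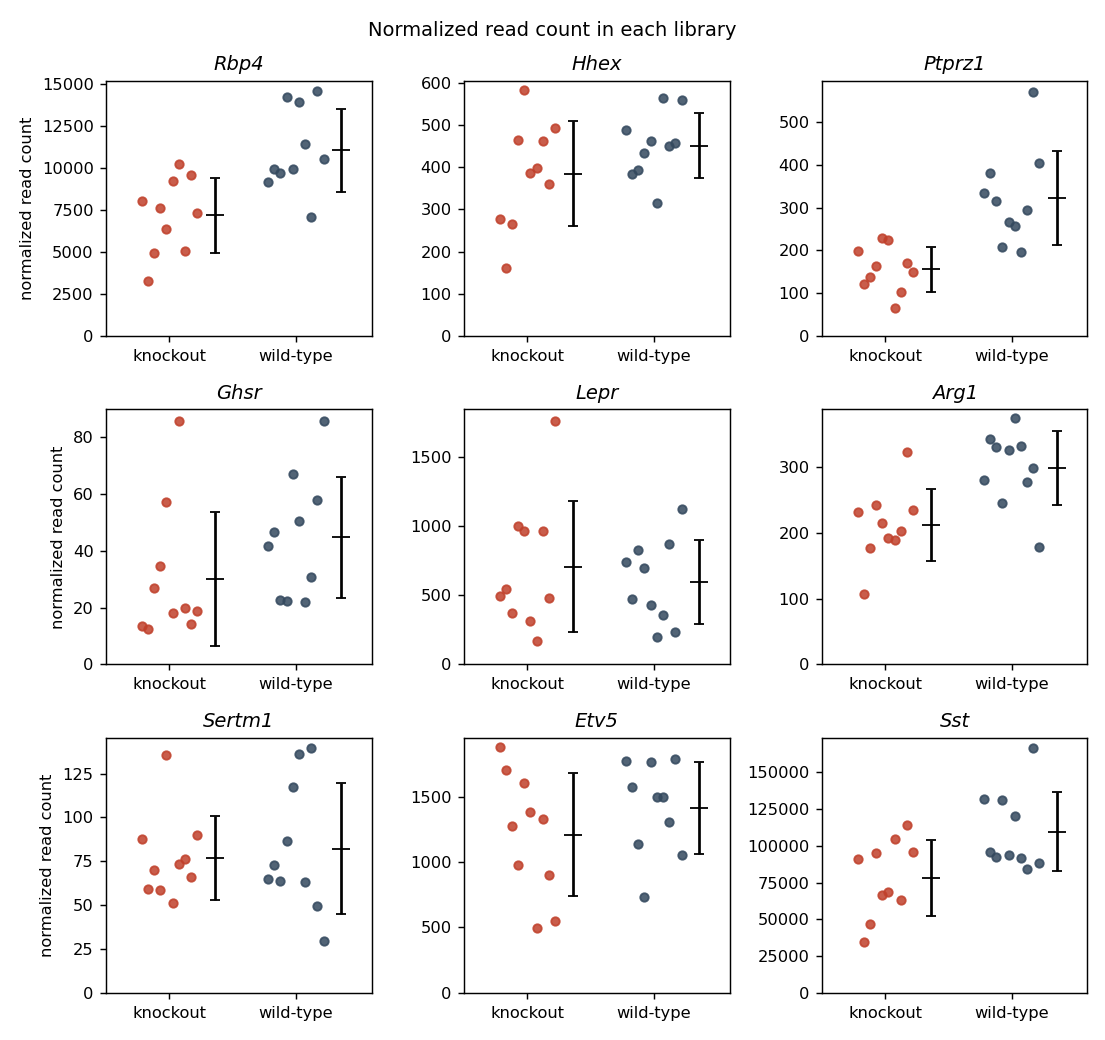
Normalized read count (vertical, linear axis from 0) of the 8 tested genes and of Sst in each of the 10 knockout and 10 wild-type libraries. Points are single libraries in column order, and the bar beside them is the mean with the SD. For Ptprz1, 8 wild-type libraries lie above the highest knockout library, and in Sertm1 all knockout libraries lie inside the wild-type range.

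Because Sst itself had a log2 difference of −0.54, the genes were next set against Sst in the same library. Sertm1 and Etv5 stand with Ppy and Pyy among the PP cell markers used here. For them Sst is the hormone gene of another cell type. For all tested genes the log2 value of Sst was subtracted before the fit. Of the 8 genes 0 then passed an adjusted p of 0.05 by limma, against 13.3% of all 17481 tested genes (13.2% called higher and 0.103% called lower). At an unadjusted p under 0.05 there were also 0 of the 8, against 39.8% of all tested genes higher and 0.297% lower. The subtraction moves all genes up together, and the median over all tested genes became 0.54. The median of the 8 was 0.13, with 3 negative. When libraries were weighted by their estimated precision it was −0.19 with 6 negative, and the median over all tested genes was 0.19. With 1 library left out the median of the 8 ran from 0.03 (without knockout library 2) to 0.19 (without knockout library 7). In the same fits the median over all tested genes was 0.41 and 0.60.

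Relative to Sst, Ptprz1 had a log2 difference of −0.52 (95% interval −1.12 to 0.08, adjusted p = 0.159 by limma). For each 1000 Sst counts there were 2.23 ± 0.982 counts of Ptprz1 in knockout and 3.01 ± 0.930 in wild-type libraries (SD, n = 10 each). Rbp4 averaged 93.8 ± 17.1 per 1000 Sst counts in knockout and 103 ± 17.3 in wild-type libraries, a log2 difference of −0.13 (95% interval −0.46 to 0.21). Arg1 averaged 2.83 ± 0.539 in knockout and 2.85 ± 0.794 in wild-type libraries, a log2 difference of 0.02 (95% interval −0.41 to 0.46). Lepr (0.70) and Sertm1 (0.53) had the highest values relative to Sst, with intervals from −0.20 to 1.61 and from −0.16 to 1.21. For Hhex the log2 difference relative to Sst was 0.25, for Etv5 0.24 and for Ghsr −0.16. With 1 library left out, Etv5 ran from 0.053 (without knockout library 2) to 0.43 (without knockout library 7) and Ghsr from −0.30 (without knockout library 5) to −0.0029 (without knockout library 9). Hhex was at 0.16 without knockout library 5, and Ptprz1 at −0.34 without knockout library 7.

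**Figure D3:**
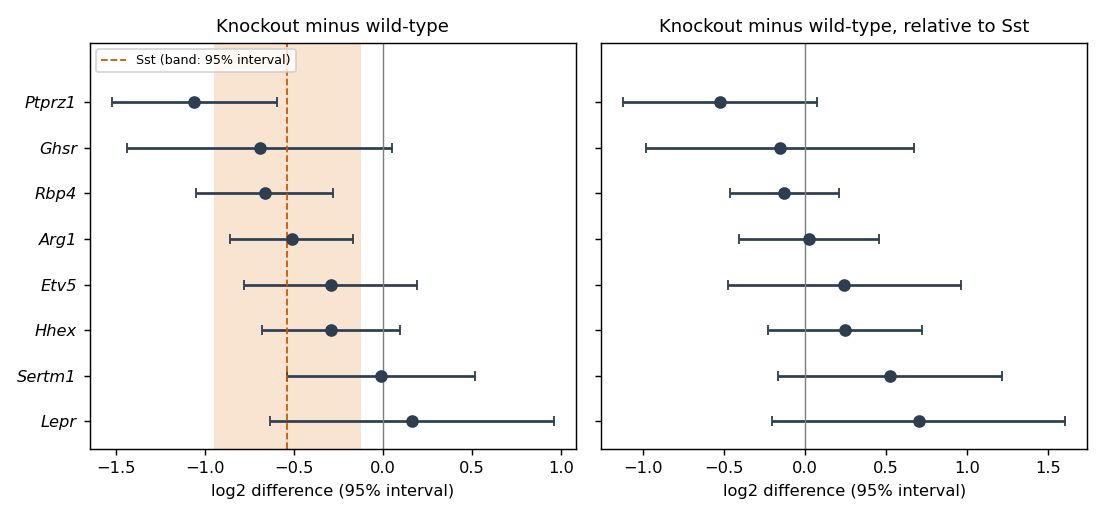
Log2 difference between knockout and wild-type libraries (horizontal) of the 8 tested genes as measured (left) and after subtraction of Sst in the same library (right). Points are limma estimates and bars 95% intervals, and the band on the left is the interval of Sst, centred on −0.54. On the left the intervals of Ptprz1, Rbp4 and Arg1 stay below 0, and on the right all 8 cover 0.

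Whether the genes varied with Sst from library to library was read from log2 values with the genotype mean subtracted, over 20 libraries. Rbp4 followed Sst closely, with Pearson's r = 0.84 (permutation p = 3e-05, adjusted p = 2.4e-04 over the 8 genes) and Spearman's rho = 0.79 (permutation p = 1.1e-04, adjusted p = 8.8e-04). The smallest p these permutations can give is 1e-05. Without knockout libraries 2 and 3, which are farthest from the Sst median, r was 0.68. Within knockout libraries r was 0.90 (permutation p = 8.2e-04, adjusted p = 0.00328). Within wild-type libraries r was 0.68 (permutation p = 0.0307, adjusted p = 0.245) and rho 0.47 (permutation p = 0.178, adjusted p = 0.474), so neither passed there. Of 13948 genes whose mean reached 50, Rbp4 ranked 2 in likeness to Sst, between Bex3 (r = 0.84) and Dnajc24 (r = 0.84). In turn Sst ranked 4 in likeness to Rbp4, after Fam104a (r = 0.88), Gpx3 (0.88) and C1qa (0.86), a complement gene of macrophages, with Gcg at rank 16 and Ins2 at rank 24. The insulin and glucagon genes Ins2 (r = 0.77) and Gcg (0.79) thus varied with Rbp4 nearly as much as Sst did, and Ppy had r = −0.05.

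Arg1 had r = 0.61 with Sst (permutation p = 0.00847, adjusted p = 0.0339) and rho = 0.45 (permutation p = 0.0551, adjusted p = 0.220). It varied nearly as much with Ins2 (r = 0.55) and Gcg (0.53). Without knockout libraries 2 and 3 its r with Sst was 0.27, so the relation with Sst rested on those libraries. Within knockout libraries r was 0.86 (permutation p = 7.5e-04) and within wild-type libraries 0.07 (permutation p = 0.856), and the difference between these was not tested. The r of Hhex with Sst was 0.43, and −0.29 without the same libraries. For Ptprz1 (r = 0.13), Ghsr (0.19), Sertm1 (0.02), Lepr (−0.15) and Etv5 (−0.40) no relation with Sst passed, the lowest permutation p being 0.125 for Etv5. With Ppy, the hormone gene of PP cells, Sertm1 had r = −0.07 and Etv5 r = −0.05. Ptprz1 ranked 4772 in likeness to Sst, and the genes most like it were Zfp454 (r = 0.82), Atg16l1 (0.81) and Slc41a2 (0.79).

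Lepr, and by rank also Hhex, varied with markers of cells that are not endocrine. The relations with the mean log2 level of 8 marker lists were computed in 64 pairs and adjusted over them. Lepr varied with 6 endothelial markers (r = 0.78, permutation p = 1.4e-04, adjusted p = 0.00427, rho = 0.76 with permutation p = 3.8e-04) and with 6 stellate cell markers (r = 0.76, permutation p = 7e-05, adjusted p = 0.00427, rho = 0.76 with permutation p = 3.5e-04). Without the 2 libraries farthest from the median of each list these were r = 0.71 and r = 0.73. It varied against 8 beta cell markers (r = −0.76, permutation p = 2e-04, adjusted p = 0.00427, rho = −0.73 with permutation p = 7.8e-04), with r = −0.63 without the 2 farthest libraries. The genes most like Lepr were Ptprb (r = 0.91), a phosphatase gene of vascular endothelium, Itih5 (0.88) and Ddr2 (0.88), a collagen receptor gene of mesenchymal cells. The summed endothelial markers ran from 19778 to 47224 in knockout and from 21512 to 42310 in wild-type libraries, and the summed stellate markers from 5748 to 34984 in knockout and from 2019 to 44026 in wild-type libraries. Their part in the level of Lepr was not tested.

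Lepr also had r = 0.62 with 6 duct markers (permutation p = 0.00249, adjusted p = 0.0398, rho = 0.55 with adjusted p = 0.118) and r = 0.64 with 8 macrophage markers (permutation p = 0.00381, adjusted p = 0.0488, rho = 0.58 with adjusted p = 0.118). Hhex had r = 0.62 with the endothelial markers (permutation p = 0.00954, adjusted p = 0.0763) and r = 0.50 with the duct markers (permutation p = 0.00523, adjusted p = 0.0558). Its rank correlation with the duct markers was rho = 0.65 (permutation p = 0.00201, adjusted p = 0.0322), and r was 0.71 without the 2 libraries farthest from their median. The summed duct markers ran from 17891 to 60613 in knockout and from 14431 to 50034 in wild-type libraries. Of the genes most like Hhex, Lbp had r = 0.86, Evc2 0.84 and Rarg 0.81. None of the other 6 tested genes passed an adjusted p of 0.05 with any of the 8 lists. With acinar markers Ptprz1 had r = −0.46 and Ghsr −0.44 (permutation p = 0.0491 and 0.0586, neither passing the adjustment over the 64 pairs).

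**Figure D4:**
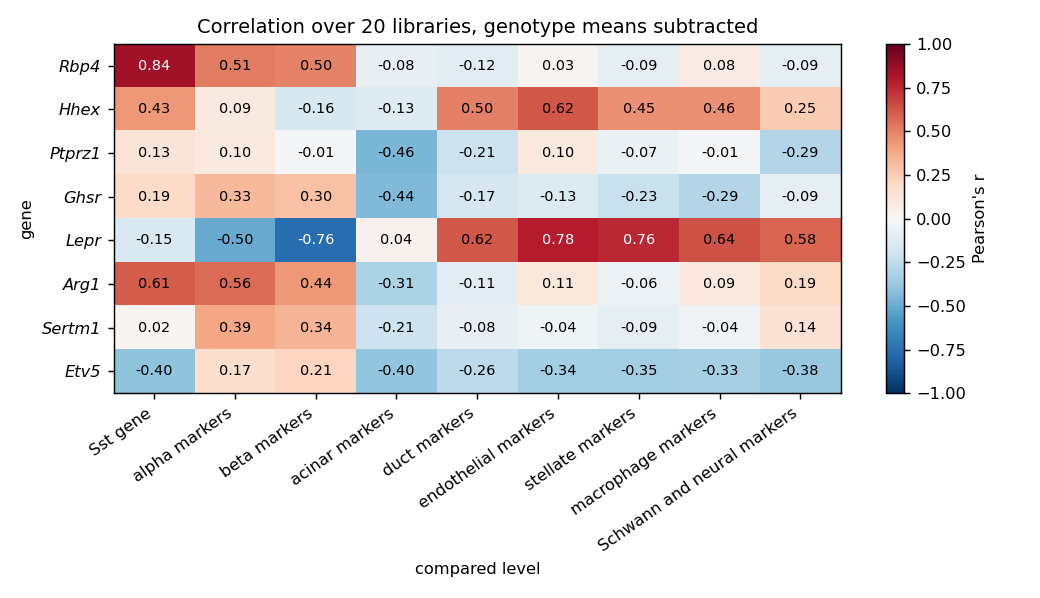
Pearson's r over 20 libraries, with genotype means subtracted, between each of the 8 tested genes (rows) and Sst or the mean log2 level of 8 marker lists (columns). Red is positive and blue negative, with the value in each cell. Rbp4 has its highest value with Sst (0.84), and Lepr with endothelial (0.78) and stellate markers (0.76).

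**Figure D5:**
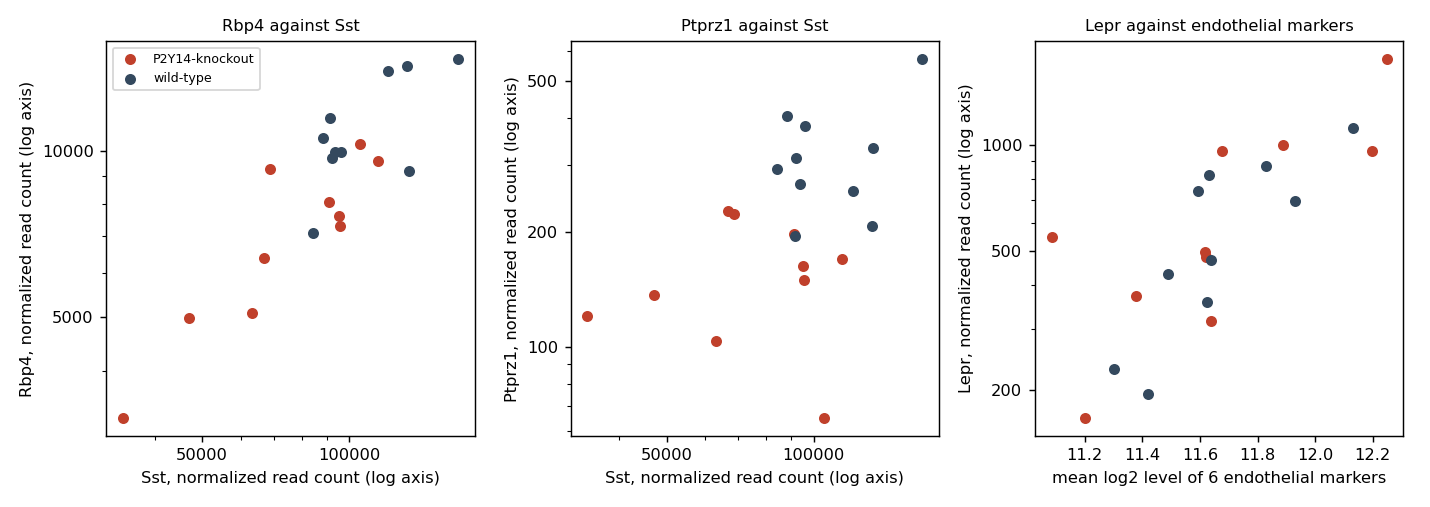
Rbp4 (left) and Ptprz1 (middle) against Sst, and Lepr (right) against the mean log2 level of 6 endothelial markers, in 10 knockout (red) and 10 wild-type libraries (dark blue). Read counts are on log axes and points are single libraries. Rbp4 has r = 0.90 with Sst within knockout and 0.68 within wild-type libraries, the latter not passing the adjustment. Ptprz1 has r = 0.13 with Sst, and Lepr rises with the endothelial level.

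The remaining genes had these closest partners over the same 20 libraries. Etv5 was most like Ppp2r3a (r = 0.90), Slc22a23 (0.89) and Zbtb5 (0.86), and Sst ranked 11443 of 13948 for it. Arg1 was most like Gpsm2 (0.82), 1700023F06Rik (0.82) and Spata24 (0.79), with Sst at rank 127. Sertm1 was most like Tmem25 (0.82), Mpp3 (0.82) and Syt2 (0.79), with Sst at rank 6551. These are the highest correlations of 13948 genes and are given as a description.

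Genes around these 9 in their pathways were read in 7 lists of 101 entries, of which 98 were in the table and 85 were tested. By limma 0 of the 85 passed an adjusted p of 0.05, against 0.280% of all tested genes, and edgeR and DESeq2 also called 0. At the unadjusted level, 12 of the 85 had p under 0.05, 10 of them lower, against 4.63% lower and 4.31% higher over all tested genes. A negative difference was found for 48, with a median of −0.09, against 50.4% and −0.002 over all tested genes.

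Other genes of delta and PP cells were negative in 17 of 20 tested, with a median log2 difference of −0.24, against 50.4% negative and a median of −0.002 over all tested genes. Markers of alpha cells, another endocrine cell type of the islet, were negative in 5 of 6, with a median log2 difference of −0.57. Cartpt, which encodes the CART peptide of some islet endocrine cells, averaged 49.3 ± 45.3 normalized read counts in knockout libraries and 105 ± 37.4 in wild-type libraries (SD, n = 10 each), a log2 difference of −1.47 (adjusted p = 0.186 by limma). Without knockout library 6 it was −1.71 with an adjusted p of 0.0392 by limma. Pyy had a log2 difference of −0.53 (adjusted p = 0.537 by limma).

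Of the somatostatin receptors 3 were tested, while Sstr4 and Sstr5 were too low. Sstr1 averaged 15.8 ± 9.19 in knockout and 42.1 ± 32.9 in wild-type libraries (SD, n = 10 each), with a log2 difference of −1.50 (adjusted p = 0.352 by limma). Sstr2 was at −0.71 and Sstr3, the most abundant, at 0.02.

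In the list for hormone ligands and signalling of Ghsr, Lepr and Mc4r, 7 of 11 tested genes were negative, with a median log2 difference of −0.11. The 11 include Ucn3, which is also among the beta cell markers, at 0.005. Ghrl, which encodes ghrelin, the ligand of Ghsr, averaged 123 ± 92.5 in knockout and 239 ± 101 in wild-type libraries (SD, n = 10 each), with a log2 difference of −1.18 (adjusted p = 0.347 by limma). Stat3, a transcription factor downstream of the leptin receptor, was at −0.44, and the insulin receptor substrate gene Irs2 at −0.52.

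The lists around Rbp4, Arg1, Ptprz1 and Etv5 had medians of 0.06, 0.07, −0.10 and 0.06 over 14, 14, 9 and 14 tested genes. In retinoid handling the nuclear receptor gene Rxra was at −0.26, the retinal dehydrogenase gene Aldh1a3 at 0.63 and the retinoic acid receptor gene Rarb at −0.84. For Rarb the adjusted p was 0.728 by limma, with 1 knockout library at 0. In arginine metabolism Odc1, which encodes ornithine decarboxylase, averaged 699.7 ± 239 in knockout and 449.7 ± 169 in wild-type libraries (SD, n = 10 each), a log2 difference of 0.63 (adjusted p = 0.379 by limma). The argininosuccinate lyase gene Asl was at 0.36 and the inducible nitric oxide synthase gene Nos2 at −1.32. Nos2 averaged 11.1 in knockout and 18.0 in wild-type libraries, with 3 knockout libraries at 0 (adjusted p = 0.581 by limma). Around Ptprz1 the adhesion gene Nfasc was at −0.36, Git1, a substrate of the phosphatase, at −0.15, and Mdk, which encodes the ligand midkine, at 1.11. For Mdk the adjusted p was 0.694 by limma, with 1 wild-type library at 0. Around Etv5 the FGF pathway inhibitor genes Spred2 and Spred1 were at −0.44 and −0.21, and Fgf1 at 0.27.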

How the data were processed

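The deposited table holds DESeq-normalized read counts, that is, a signal unit of gene read counts divided by 1 size factor per library by the authors, per the file's name. The submitters' processing notes name TopHat 1.3.3, Bowtie 0.9.9, Cufflinks 1.3.0, DESeq 1.16.0 and mm9, while the sources used here name neither the read counter nor its strand setting. All non-zero values of a column (100%) were whole steps of 1 read within 0.05 reads, which returned the reads per gene and the depth. Counting error is larger in libraries where 1 read is worth more normalized read counts, and for low genes. Wild-type columns are numbered 11 to 20 and the labels 1 to 10, so they carry no replicate number of the labels. Names, chromosomes and exon lengths come from GENCODE M21 on GRCm38, which named 23950 of the genes. Coordinates are printed only for promoter windows of that build.

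Groups were compared with limma 3.58.1 (R 4.3.3; lmFit, then eBayes with a trend on the mean level). Values entered as log2(value + 1), genes averaging under 10 were left out, and p-values were adjusted by Benjamini-Hochberg over all tested genes. On this scale the added 1 can understate the change of low genes. Libraries at 0 can also widen it. Nos2, with 3 knockout libraries at 0, had a log2 difference of −1.32 but a ratio of means of 0.614. Intervals cover 95%. Correlations were tested by two-sided permutation of libraries within genotype with 100000 resamples, in Python 3.11.15 with scipy 1.17.1. Alternatives were other pseudocounts and filters, TMM and quantile normalization, robust eBayes, library weights, covariates, count tests on recovered reads with DESeq2 1.42.0 and edgeR 4.0.16, and leaving out each library. The fit was first tested on simulated data with known changes. Named genes were the 9 genes and Sst, the 3 smallest p of each related list, and the 3 genes most like each listed gene with a mean of at least 50. The genes and lists were chosen with earlier results of these data known.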

Additional observations from a re-analysis of the deposited data

Results flagged for a closer look

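In 18 sets of 10 libraries, made of the 8 tested genes and Sst in each genotype, 2 held a library far from the other 9 by Dixon's test, which flags about 1 set in 20 by chance. Lepr was at 1760 in knockout library 10, with the next knockout library at 999.7, and the endothelial and stellate marker sums of that library, 47224 and 34984 normalized read counts, were the highest of the knockout libraries. Their part in the value was not tested. Sertm1 was at 135 in knockout library 5, with the next knockout library at 89.8.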

How the results depend on the processing

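The number of the 8 genes called, 1 in the limma fit, was 0 with no filter on low values (Ptprz1 adjusted p = 0.0503), with Sst as a covariate (−0.99, adjusted p = 0.143) and without knockout libraries 2 and 10 (adjusted p = 0.0945), the last chosen after seeing the data. It ran from 0 to 1 with 1 library left out, being 0 without knockout library 2, 3, 4, 8, 9 or 10 or wild-type library 11, 12, 13, 15, 16, 18, 19 or 20, and stayed at 1 in 12 of the 15 other settings. Ptprz1 was called by edgeR (adjusted p = 0.0399) and DESeq2 (adjusted p = 9.16e-04). Relative to Sst the number was 0 in all 12 other settings and with each library left out (0 to 0). The count in the related lists was 1 with the macrophage covariate (Cartpt), and 0 to 1 with 1 library left out. The count of genes that varied with Sst, 2, was 1 without the 2 libraries farthest from the Sst median. The difference of Lepr was −0.093 with the macrophage covariate, −0.004 with Sst as a covariate, −0.028 without knockout libraries 2 and 10, and −0.016 to 0.36 with 1 library left out. That of Sertm1 ran from −0.16 to 0.087. Relative to Sst, Ghsr was at 0.018 with a pseudocount of 10, and with library weights Arg1 was at −0.28, Sertm1 at −0.020 and Etv5 at −0.16. With 1 library left out, values relative to Sst ran from −0.044 to 0.093 for Arg1, 0.053 to 0.43 for Etv5, −0.30 to −0.0029 for Ghsr, 0.16 to 0.32 for Hhex and −0.62 to −0.34 for Ptprz1. The median of the 8 relative to Sst was −0.19 with library weights and 0.13 without them. Over all tested genes the median also fell, to 0.19 with library weights from 0.54 without them. The cause of this shared shift was not tested. Over all genes the 49 calls became 163 with library weights, 137 with DESeq2, 84 with the acinar covariate, 32 with the Sst covariate and 29 at a mean of at least 100, and with edgeR 72.1% of 43 calls were higher, against 57.1% of the 49. The 2323 calls relative to Sst became 1352 with no filter, 810 with library weights, 482 with the macrophage covariate, 130 without knockout libraries 2 and 10 and 33 with quantile normalization. With 1 library left out the calls ran from 28 to 75 over all genes and from 96 to 4533 relative to Sst. No paired analysis was possible because the wild-type columns carry none of the labels' replicate numbers. Depth limits Mc4r most.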

Other observations

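Single knockout libraries stood at the ends of the group for several of the 8 genes at once. Knockout library 2 was the lowest knockout library for 4 of them, Hhex, Rbp4, Ghsr and Arg1, and also held the lowest Sst, at 34450. Knockout library 7 was the lowest for 3, Ptprz1, Lepr and Etv5, and the highest for 2, Rbp4 and Ghsr. Knockout library 5 was the highest for 3, Hhex, Ptprz1 and Sertm1. It had the fewest reads over genes, while 1 read was worth 1.54 normalized read counts in it. Over the knockout libraries that worth ran from 0.43 to 2.57. Among wild-type libraries, library 19 was the highest for 3, Rbp4, Ptprz1 and Etv5, and held the highest Sst, at 166733. These libraries were singled out after their values were seen.

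Among the 8 genes themselves, over 20 libraries with genotype means subtracted, Rbp4 and Arg1 had r = 0.52 and Ptprz1 and Etv5 r = 0.47. The lowest values were −0.41 for Rbp4 and Lepr and −0.40 for Rbp4 and Etv5. These are descriptions of libraries that share the same depth and tissue makeup for all genes.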
